A study of Mus musculus with 7 samples.

Results

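The tumour necrosis factor (TNF) family members described here were 7 genes, 4 ligands and 3 receptors, chosen by name from the 28719 genes with a row in any of the 7 count tables of the series. The ligands were Tnf, the founding cytokine of the family, Tnfsf14 (LIGHT), Tnfsf13b (BAFF, a survival factor for B cells) and Tnfsf9 (the ligand of 4-1BB). The receptors were Tnfrsf1a (TNFR1), Tnfrsf1b (TNFR2) and Fas. Of these, 6 had a row in all 7 tables. Tnfsf9 had no row in the tables of the first healthy run, which list only genes with at least 11 UMIs, so its level there was 10 UMIs or fewer and was treated as not measured.

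TNF is made as a membrane protein, is cut from the cell surface by the protease ADAM17, and signals through TNFR1, which carries a death domain and is found on most cells, and through TNFR2, which lacks a death domain, recruits TRAF adaptors directly and is found mainly on leukocytes and endothelium. Fas carries a death domain too and is a well-known trigger of neutrophil apoptosis. Neutrophils are also a known source of BAFF, and TNF is among the cytokines that they make when they are activated in tissue.

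The members were read in single-cell RNA-seq counts of neutrophils, sorted as live Ly6G+ CD11b+ cells from male wild-type C57BL/6J mice. In 2 healthy runs, with mice of 6 weeks in run 1 and 8 weeks in run 2, blood, bone marrow and spleen were taken from the same 3 pooled mice and made into 1 library per tissue and run. A further library held antibody-hashtagged cells of 5 conditions, each again a pool of 3 mice. Healthy blood came from mice whose age was not stated. Blood and ankle joint lavage came from mice with arthritis, given 150 µl of K/BxN serum intraperitoneally on days 0 and 2. The arthritic mice were 8 weeks old when injected and were taken on day 7. The other conditions came from mice of 8 weeks, 3 hours after 25 ng of IL-1β. They were bronchoalveolar lavage after intranasal IL-1β (in 30 µl) and peritoneal lavage after intraperitoneal IL-1β (in 200 µl). The deposited table of cells and the study's text give the lung and peritoneum cell numbers in opposite order, and the table's labels were used. Scgb1a1, a secretory gene of airway club cells, had 88 UMIs in the cells labelled lung, 0 in those labelled peritoneum and 0 to 2 in the other conditions. Healthy cells were kept where S100a8 and S100a9 made up at least 3% of UMIs and neither Cd79a nor Cd3e had a UMI, and cells of the hashtagged library where the deposited table of cells gave them a reference class of granulocytes. These rules kept 17304 of 21763 barcodes, 12452 from the healthy libraries (1131 to 3616 per library, with 1358839 to 8787394 UMIs) and 4852 from the hashtagged conditions (292 to 2857 cells, with 942688 to 10293966 UMIs). All 15 neutrophil markers were detected in each library and condition, and their summed level was 161385 to 504670 counts per 1000000 UMIs (CPM).

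Markers listed for other cells differed between the libraries. The summed level of 11 monocyte and macrophage markers was 272 to 1391 CPM in the healthy libraries and 283 to 389 CPM in the hashtagged conditions. It was highest in marrow of run 1, where 1344 CPM were Ly6c2. Erythroid markers reached 30532 CPM in blood of run 2, B cell markers 445 CPM and dendritic cell markers (nearly all Cd74) 770 CPM in spleen of run 2, and mast cell and basophil markers were at 0 in all 5 hashtagged conditions. At most 36 barcodes were shared by any 2 libraries, of which the smallest had 1219. The spleen libraries stood apart from each other: cells in which the granule genes Ngp, Camp and Ltf made up at least 2% of UMIs, called granule-high here, were 43.9% of spleen neutrophils in run 1 and 3.17% in run 2. In marrow they were 62.6% and 46.0%, and in blood 11.0% and 0.94%.

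In the GENCODE annotation of GRCm38 all members were protein-coding genes. Tnf lay at chr17:35199381-35202007 on the minus strand, and Tnfsf9 (chr17:57105325-57107757, plus strand) and Tnfsf14 (chr17:57189492-57194177, minus strand) lay further along the same chromosome. Tnfsf13b lay at chr8:10006467-10039072 (plus strand), Tnfrsf1a at chr6:125349362-125362484 (plus strand), Tnfrsf1b at chr4:145213463-145246870 (minus strand) and Fas at chr19:34290666-34327772 (plus strand).

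The promoters of 4 members are printed as a description: Tnf, Tnfrsf1b and Fas, which were higher in IL-1β-elicited lung and peritoneal neutrophils, and Tnfrsf1a, which was not. Each sequence is RefSeq's for GRCm38.p6, reads 5′ to 3′ on the gene's strand from 250 bases before to 50 bases after the start, and has motif matches in capitals.
Tnf (chr17:35201958-35202257, minus strand): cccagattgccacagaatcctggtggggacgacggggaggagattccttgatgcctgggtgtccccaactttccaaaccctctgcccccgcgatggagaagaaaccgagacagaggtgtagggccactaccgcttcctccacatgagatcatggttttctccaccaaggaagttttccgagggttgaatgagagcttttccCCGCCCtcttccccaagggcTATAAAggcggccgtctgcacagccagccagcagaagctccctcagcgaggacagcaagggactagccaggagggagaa
Tnfrsf1b (chr4:145246821-145247120, minus strand): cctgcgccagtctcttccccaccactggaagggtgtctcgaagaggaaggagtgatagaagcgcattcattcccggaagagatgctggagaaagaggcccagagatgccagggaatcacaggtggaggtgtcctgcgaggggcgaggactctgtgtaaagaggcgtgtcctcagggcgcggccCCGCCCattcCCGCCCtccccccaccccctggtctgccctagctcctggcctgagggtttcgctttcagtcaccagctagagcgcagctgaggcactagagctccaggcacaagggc
Fas (chr19:34290409-34290708, plus strand): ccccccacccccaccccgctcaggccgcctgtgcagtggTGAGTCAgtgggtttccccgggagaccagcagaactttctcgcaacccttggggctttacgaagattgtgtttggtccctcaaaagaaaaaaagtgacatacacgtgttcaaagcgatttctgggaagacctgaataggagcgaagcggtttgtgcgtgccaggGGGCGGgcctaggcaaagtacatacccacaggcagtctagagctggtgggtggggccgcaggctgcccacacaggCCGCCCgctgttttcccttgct
Tnfrsf1a (chr6:125349473-125349772, plus strand): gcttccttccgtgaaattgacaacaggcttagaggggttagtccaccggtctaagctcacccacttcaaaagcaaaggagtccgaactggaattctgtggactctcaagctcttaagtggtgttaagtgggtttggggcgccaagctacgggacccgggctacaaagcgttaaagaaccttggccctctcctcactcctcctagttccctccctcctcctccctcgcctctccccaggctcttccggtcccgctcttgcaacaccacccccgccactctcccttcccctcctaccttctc

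The capitals mark 3 motifs, searched on both strands: the TATA box TATAAA, the AP-1 site TGANTCA, which reads the same on both strands, and the GC box GGGCGG. No matches overlapped in the promoters printed. Of the 6 members with a promoter in the RefSeq table, only Tnf held TATAAA, beginning 29 bases before the start, against 13.6% of 32851 promoters of this length. AP-1 sites were found in Tnfsf14, Tnfsf13b and Fas (7.81% of all promoters) and GC boxes in Tnf, Tnfrsf1b and Fas (35.7% of all promoters). The NF-κB consensus was found in 4.51% of all promoters and in 0 of the 6 members within these windows. A match is only a run of letters.

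Among healthy tissues the clearest differences were those between blood and marrow. Transcripts of both TNF receptors, of Fas and of Tnfsf14 were more abundant in blood neutrophils, Tnfrsf1b by 6.50-fold and Tnfsf14 by 4.33-fold. The increase of Fas did not hold among granule-low cells (-0.34 on the log2 scale) or with DESeq2 (FDR = 0.072). Tnf itself stayed at 14.7 CPM or below in every healthy library. The comparison used UMIs summed over the neutrophils of each library, edgeR's quasi-likelihood test with the run as a block, and an FDR under 0.05 over the 7730 genes tested. Of the 6 members tested, 4 were called higher in blood, where 12% of all tested genes were called higher. With the run as a block, these p-values measure how closely the tissue differences repeated over the 2 runs, not the spread between 2 pools of a tissue.

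**Figure D1:**
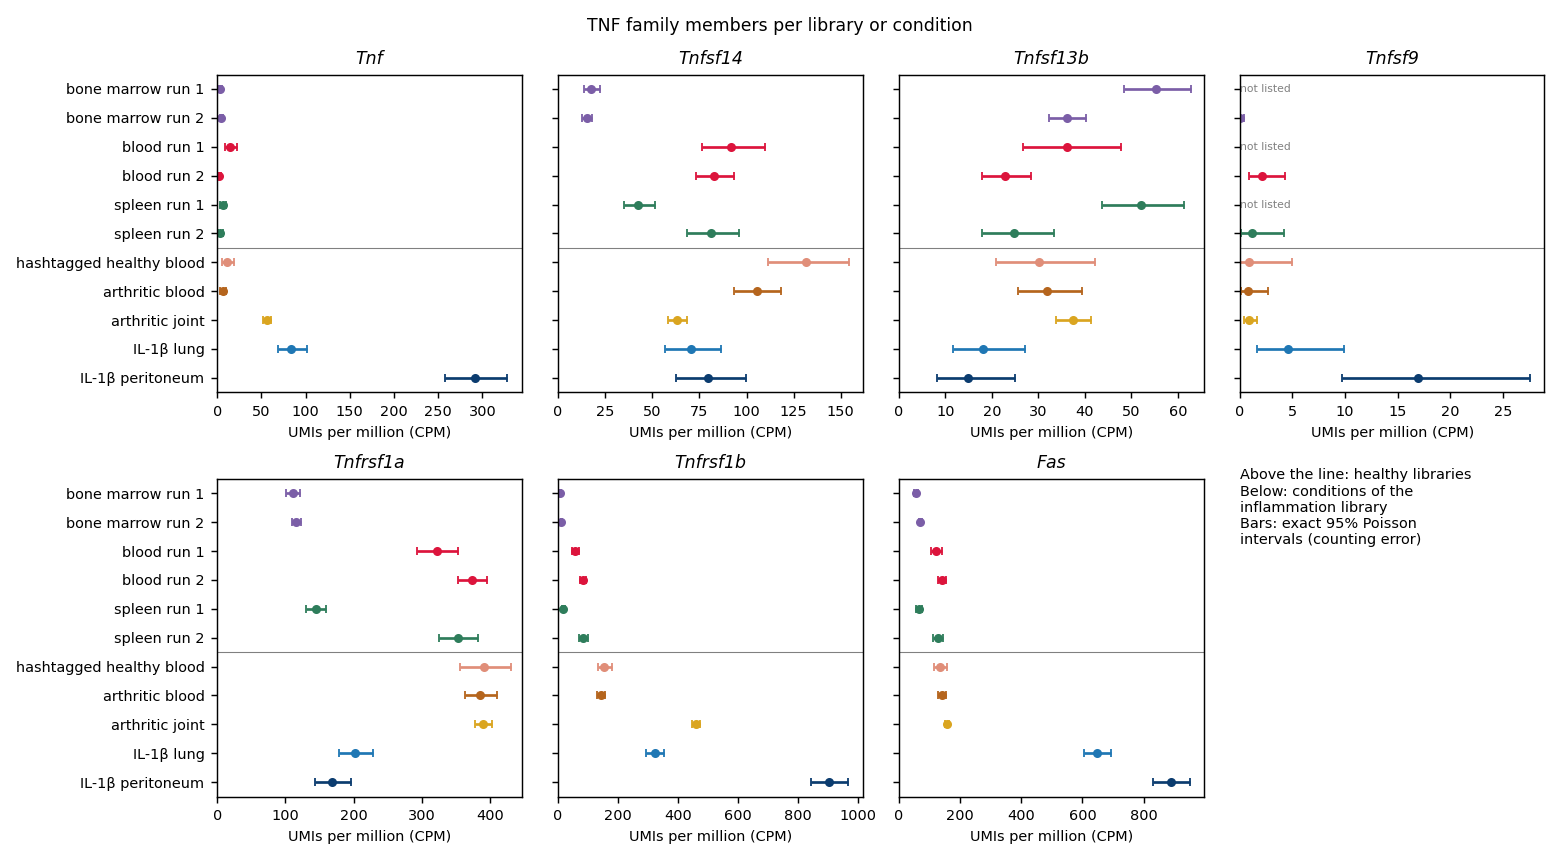
Level of each member in counts per 1000000 UMIs (CPM, horizontal axis, starting at 0) in the 6 healthy libraries and 5 hashtagged conditions (rows), with exact 95% Poisson intervals that cover counting error only. Tnf lies at 14.7 CPM or below in all healthy libraries and at 292 CPM in the IL-1β peritoneum, and Tnfsf9 has no value in run 1.

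Tnf was at 3.07 and 4.78 CPM in marrow (13 and 42 UMIs in runs 1 and 2), 14.7 and 1.77 CPM in blood (20 and 6 UMIs), and 5.99 and 2.88 CPM in spleen (16 and 5 UMIs). The highest and the lowest library were both blood, so the tissues overlapped fully. The fitted difference between blood and marrow was 0.13 ± 1.00 (log2, SE; edgeR FDR = 0.94). It turned negative without marrow of run 1 (-1.30) or blood of run 1 (-1.28), and was 1.69 without marrow of run 2. No order of the healthy tissues could be read for Tnf at this depth.

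Tnfsf14, whose product LIGHT binds the lymphotoxin β receptor and HVEM, had 17.7 and 15.4 CPM in marrow, 92.0 and 82.9 CPM in blood and 42.6 and 81.2 CPM in spleen. Both marrow libraries lay below all others. Tnfsf14 was higher than in marrow by 2.11 ± 0.26 (log2, SE) in blood (edgeR FDR = 0.0031) and by 1.70 ± 0.26 in spleen (edgeR FDR = 0.023). The blood call was lost without blood of run 1 (edgeR FDR = 0.054), and the spleen call without either blood library (edgeR FDR = 0.066 without run 1 and 0.065 without run 2), with the direction kept.

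Tnfsf13b ran the other way. It had 55.2 and 36.1 CPM in marrow, 36.1 and 22.7 CPM in blood and 52.0 and 24.8 CPM in spleen. In each tissue run 1 was above run 2, and within each run blood was below marrow. The difference of -0.93 ± 0.29 (log2, SE) between blood and marrow missed the threshold (edgeR FDR = 0.057), and passed it without marrow of run 1 (FDR = 0.026), spleen of run 1 (0.0087) or spleen of run 2 (0.0040).

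Tnfsf9, a costimulator of T cells, had 0 UMIs in marrow of run 2, 7 in blood of run 2 and 2 in spleen of run 2, too few for a test. The marrow count of 0 lies under a floor of 3 UMIs.

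Tnfrsf1a, the death-domain receptor of TNF, had 111 and 116 CPM in marrow, 322 and 374 CPM in blood and 145 and 353 CPM in spleen. Marrow and blood did not overlap, and the spleen of run 1 lay near marrow while that of run 2 lay within the range of blood. The increase from marrow to blood was 1.32 ± 0.25 (log2, SE; 2.50-fold; edgeR FDR = 0.011). It was lost without marrow of run 2 (FDR = 0.056), blood of run 1 (0.16) or blood of run 2 (0.088). For spleen against marrow the difference was 0.85 ± 0.25 (edgeR FDR = 0.13), and it was called without spleen of run 1 (FDR = 0.0058).

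Of the 6 members tested, Tnfrsf1b had the largest fitted fold between blood and marrow, while Tnfrsf1a spanned more CPM. It had 6.85 and 11.0 CPM in marrow, 56.7 and 82.9 CPM in blood and 16.8 and 83.5 CPM in spleen. Both marrow libraries were below the rest, with spleen of run 1 between marrow and blood. The differences from marrow were 2.70 ± 0.36 (log2, SE) in blood (edgeR FDR = 0.0040) and 2.06 ± 0.36 in spleen (4.17-fold; edgeR FDR = 0.030). The blood call was lost without blood of run 1 (FDR = 0.054), and the spleen call without blood of run 1 (0.068), blood of run 2 (0.066) or spleen of run 2 (0.069).

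Fas had 55.9 and 69.4 CPM in marrow, 121 and 141 CPM in blood and 64.7 and 126 CPM in spleen. Marrow and blood did not overlap, and spleen of run 1 lay within the marrow range. Its increase from marrow to blood, 0.78 ± 0.21 (log2, SE; 1.71-fold; edgeR FDR = 0.035), was the smallest of the 4 and was lost without any single marrow or blood library (FDR = 0.21 and 0.26 without marrow, 0.31 and 0.18 without blood of runs 1 and 2). Spleen against marrow gave 0.38 ± 0.21 (edgeR FDR = 0.39).

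In spleen against marrow 2 of the 6 tested members, Tnfsf14 and Tnfrsf1b, were called higher, against 2.46% of all genes. Spleen and blood differed in 0 members by edgeR (FDR = 0.56 to 0.91), with 0 members also called by DESeq2 and 0 at an unadjusted p under 0.05. In that comparison 0.0647% of all genes were called (5 genes, 27 by DESeq2 and 753 at an unadjusted p under 0.05). The log2 differences of spleen from blood were -0.40 for Tnf, -0.42 for Tnfsf14, 0.51 for Tnfsf13b, -0.47 for Tnfrsf1a, -0.64 for Tnfrsf1b and -0.39 for Fas. Without spleen of run 2, Tnfrsf1b was called lower in spleen than in blood (-1.36, edgeR FDR = 0.019).

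The levels of markers listed for other cells moved with these tissue differences. In marrow, monocyte and macrophage markers (1391 and 1024 CPM) were mostly Ly6c2, at 1344 and 974 CPM. In spleen Ly6c2 was at 1098 CPM in run 1 and 228 CPM in run 2, where the granule gene Ngp was at 44725 and 7093 CPM. With every cell that had a UMI of such a marker left out, which kept 151 and 768 marrow cells, Tnfsf14 (0.98, edgeR FDR = 0.026) and Tnfrsf1b (1.47, FDR = 0.0028) were still called higher in blood, Tnfrsf1a was not (0.55, FDR = 0.058) and Fas changed sign (-0.36, FDR = 0.24). Marrow of run 1 held 754 granule-high cells, so this filter also left out maturing neutrophils and cannot tell them from other cells. With only cells that had a UMI of C1qa, C1qb or C1qc left out, the same 4 members were called.

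**Figure D2:**
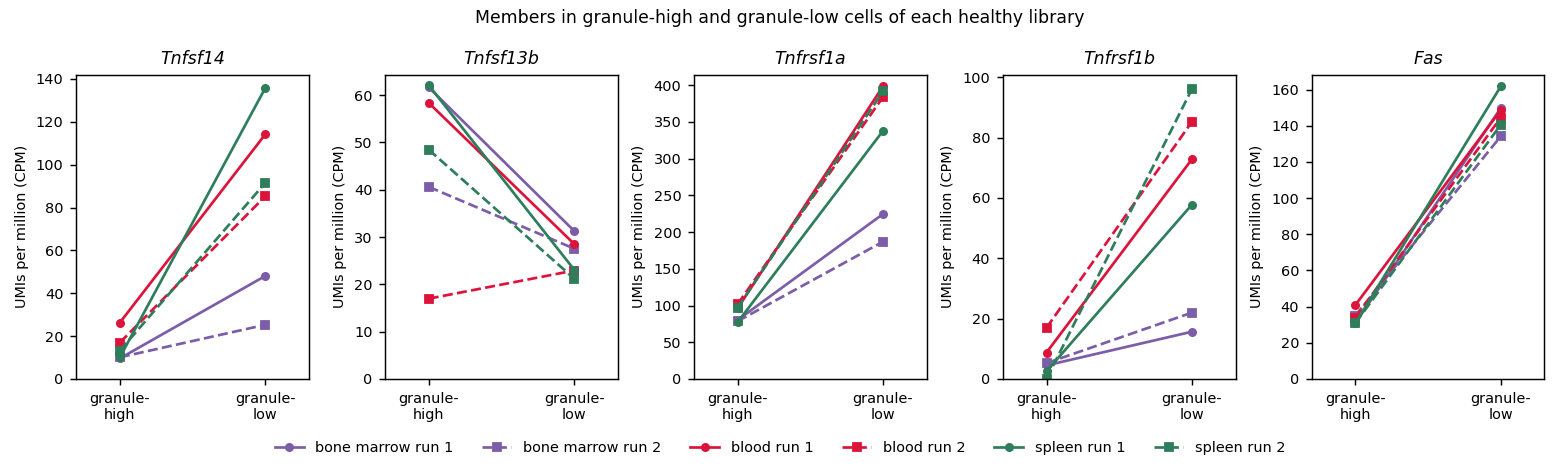
Level of 5 members in counts per 1000000 UMIs (CPM, vertical axis from 0) in granule-high and granule-low neutrophils, with 1 line for each of the 6 healthy libraries. Fas rises from 30.8 to 40.9 CPM in granule-high to 134 to 162 CPM in granule-low cells in each library, and Tnfsf13b runs the other way in 5 of 6.

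Maturity of the cells moved with tissue too, and the members could be compared between granule-high and granule-low cells of the same library. Ngp, Camp and Ltf encode granule proteins made by neutrophils that are still maturing, and none of them is a member. Tnfsf14, Tnfrsf1a, Tnfrsf1b and Fas were lower in granule-high cells and Tnfsf13b was higher, so all 5 tested members were called (Tnf and Tnfsf9 had too few UMIs to be tested). Among the 5218 genes tested 23.4% were called lower and 22.9% higher in granule-high cells, so calls were common in this comparison.

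Fas had 30.8, 35.0, 40.9, 33.9, 30.8 and 30.8 CPM in granule-high cells (marrow, blood, spleen, run 1 before run 2 in each), and 150, 134, 149, 144, 162 and 141 CPM in granule-low cells. The strata did not overlap, and within a stratum the tissues lay close together. The fitted difference was -1.82 ± 0.17 (log2, SE; 3.53-fold lower in granule-high cells; edgeR FDR = 1.3e-06).

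In the same cells Tnfrsf1b had 0 to 17.0 CPM in granule-high and 15.6 to 96.1 CPM in granule-low cells of the 6 libraries, lower in granule-high cells in each (log2 difference -2.52 ± 0.34 SE, 5.75-fold lower, edgeR FDR = 4.6e-05). Tnfsf14 had 9.58 to 26.3 CPM and 25.3 to 136 CPM (-2.05 ± 0.26, 4.15-fold lower, edgeR FDR = 2.2e-05), again lower in each library. Tnfrsf1a had 77.2 to 102 CPM and 187 to 399 CPM, with no overlap (-1.43 ± 0.13, 2.69-fold lower, edgeR FDR = 1.2e-06). The receptors and LIGHT thus shared a direction.

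Tnfsf13b was the exception, at 17.0 to 62.1 CPM in granule-high and 21.2 to 31.3 CPM in granule-low cells (1.21 ± 0.24, 2.32-fold higher, edgeR FDR = 0.00088). It was higher in granule-high cells in 5 of 6 libraries, and the sixth, blood of run 2, had 34 granule-high cells with 2 UMIs of the gene. All 5 members were also called within marrow, within blood and within spleen, with log2 differences of -1.27 to -1.59 for Tnfrsf1a, -1.33 to -2.01 for Fas, -1.54 to -3.05 for Tnfsf14, -1.91 to -4.25 for Tnfrsf1b and 0.80 to 1.81 for Tnfsf13b. Of all genes 19.5% were called lower and 18.3% higher within marrow, 13% and 11.9% within blood and 18.5% and 17.9% within spleen. The difference between strata did not differ by tissue at the threshold: 0 of 5 members were called for blood against marrow by edgeR (FDR = 0.44 to 0.95, 3.39% of all genes called), 0 by DESeq2 and 0 at an unadjusted p under 0.05. Depth moved with the strata, with medians of 2279 to 3771 UMIs per granule-high and 763 to 1743 per granule-low cell, and 952 healthy cells (7.65%) lay between 1% and 4% of granule UMIs.

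Among granule-low cells alone, Tnfsf14 and both TNF receptors stayed higher in blood than in marrow and Fas did not. The log2 differences were 1.14 ± 0.20 (SE) for Tnfsf14 (edgeR FDR = 0.0051), 1.65 ± 0.21 for Tnfrsf1b (edgeR FDR = 0.0015) and 0.54 ± 0.16 for Tnfrsf1a (edgeR FDR = 0.045), 3 of 5 tested members against 9.11% of 5786 genes. Fas was at -0.34 ± 0.16 (edgeR FDR = 0.19), the opposite sign from the comparison of all cells. Between spleen and marrow Tnfsf14 (1.31 ± 0.20, edgeR FDR = 0.0045) and Tnfrsf1b (1.62 ± 0.22, edgeR FDR = 0.0026) were called, against 7.17% of genes, while Tnfrsf1a (0.46, FDR = 0.095) and Fas (-0.30, FDR = 0.30) were not.

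**Figure D3:**
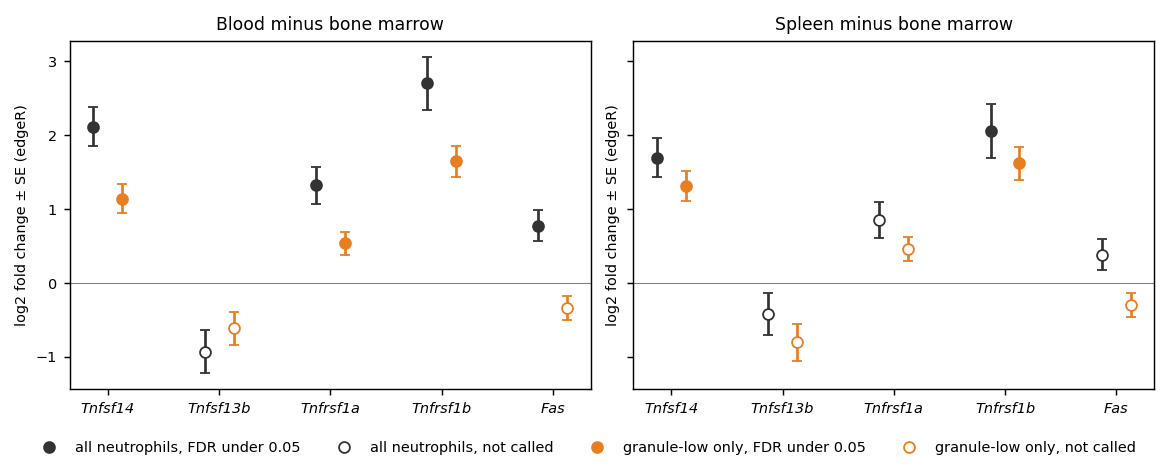
Log2 fold change of each tested member (edgeR, vertical axis, bars are SE) for blood against marrow and spleen against marrow, with all neutrophils and with granule-low cells alone. Filled points passed an FDR of 0.05, and Fas moves from 0.78 to -0.34 in blood against marrow when granule-high cells are left out.

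Counted by cell, both TNF receptors were detected in more blood than marrow neutrophils when each cell was thinned to 500 UMIs. For Tnfrsf1a the shares with a UMI in runs 1 and 2 were 7.14% and 6.59% (marrow), 18.2% and 16.9% (blood) and 9.73% and 18.0% (spleen). For Tnfrsf1b they were 0.831% and 1.08%, 3.52% and 4.31%, and 1.59% and 4.73%. For comparison, barcodes of other cell types (723 erythroid barcodes of blood, 268 B cell barcodes of marrow and 1444 of spleen) were thinned to the same depth. Of these 0.373 to 0.485% had a UMI of Tnfrsf1b and 0 to 0.968% one of Tnfrsf1a. The marrow shares of Tnfrsf1b lay above these values, the first with an exact 95% interval (0.399 to 1.52%) that overlapped the range. Unthinned, at the greater depth of marrow cells, the shares of Tnfrsf1a were 30.6% and 25.7% in marrow and 28.4% and 29.2% in blood, with no order, and those of Fas were higher in marrow (16.9% and 16.03%) than in blood (11.5% and 12.1%). Thinned, Fas had 3.74% and 4.70% in marrow and 6.42% and 7.36% in blood. Unthinned, Tnfrsf1b had a UMI in 2.24% and 2.79% of marrow neutrophils, against 1.25 to 2.61% of the other barcodes, whose medians of 1442 to 2753 UMIs differed in depth.

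In the inflamed sites Tnf was higher than in blood. In the hashtagged library it was 5.25-fold higher in joint, 7.88-fold in lung and 27.3-fold in peritoneal neutrophils than in healthy blood, and TNFR2 transcripts were higher at all 3 sites, while Fas was past 2-fold higher in lung and peritoneum and 1.16-fold above healthy blood in joint (1.46-fold with TMM scaling). Each condition was 1 pooled sample, so no test was made, intervals cover counting error only, and condition cannot be told apart from sample or from the site of collection. A gene was called past the fold at a CPM ratio of 2 or more in either direction, given 20 UMIs in both conditions together. Because the 4 ratios to healthy blood share that sample, they are given side by side and not compared as independent results.

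**Figure D4:**
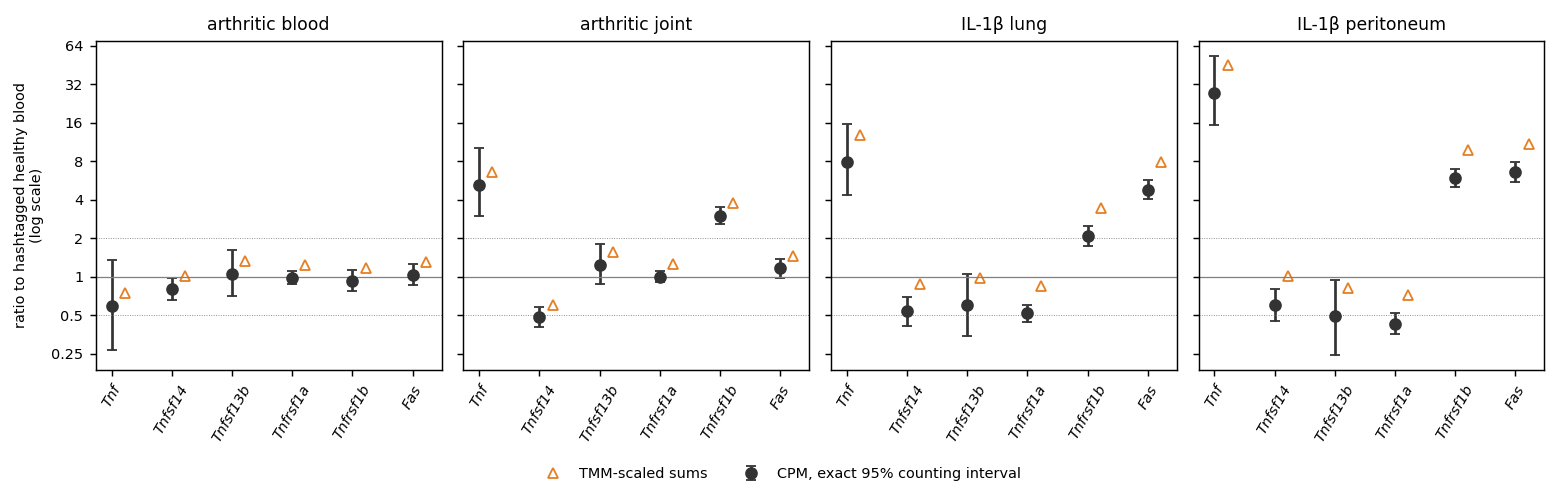
Ratio of each member's CPM in arthritic blood, arthritic joint, IL-1β lung and IL-1β peritoneum to hashtagged healthy blood (log axis, dotted lines at 2-fold), with exact 95% counting intervals as bars and the ratio of TMM-scaled sums as triangles. Tnf and Tnfrsf1b lie above 2-fold at the 3 tissue sites, and Fas in lung and peritoneum.

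Tnf had 10.7 CPM in healthy blood (12 UMIs), 6.31 in arthritic blood (17 UMIs), 56.1 in joint (577 UMIs), 84.0 in lung (111 UMIs) and 292 in peritoneum (275 UMIs). Both bloods were low and not apart beyond counting error, and joint lay above blood and peritoneum above lung beyond it. Lung exceeded joint 1.5-fold (1.21 to 1.84), but 22 of its 111 UMIs were in 1 cell, and with the cell richest in Tnf left out of each condition, chosen after seeing the data, the ratio was 1.24 (0.979 to 1.55). Without those cells the ratios to healthy blood were 5.57 in joint, 6.90 in lung and 28.8 in peritoneum. The ratios to healthy blood had 95% intervals of 2.98 to 10.2 in joint, 4.33 to 15.7 in lung and 15.4 to 53.6 in peritoneum. Within the arthritic mice, joint exceeded blood 8.88-fold (5.50 to 15.4). Dendritic cell markers, which were nearly all Cd74, were at 11.5 CPM in arthritic blood, 23.7 in joint, 147 in lung and 413 in peritoneum, and monocyte and macrophage markers were highest in peritoneum. Of the latter, Adgre1, which encodes the macrophage antigen F4/80, was at 157 CPM in peritoneum, 44.4 in healthy blood, 38.2 in arthritic blood, 32.1 in joint and 23.5 in lung, while Ccr2, C1qa and C1qc were at 0 in peritoneum. The part of Cd74 in the result was not tested. With every cell that had a monocyte or macrophage marker left out, Adgre1 among them, the ratios of Tnf to healthy blood were 4.50 in joint, 5.26 in lung and 29.7 in peritoneum. With all cells kept and TMM scaling they were 6.61, 12.9 and 45.5.

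Tnfsf14 had 132 CPM in healthy blood, 105 in arthritic blood, 63.3 in joint, 70.4 in lung and 79.6 in peritoneum. Both bloods lay above the 3 sites, whose values were not apart from each other. The joint value was 2.08-fold below healthy blood (ratio 0.481, 0.402 to 0.579). The ratios of 0.535 in lung and 0.605 in peritoneum did not reach 2-fold, and with TMM scaling all 3 were within 2-fold, peritoneum at 1.01.

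Tnfsf13b had 30.2 CPM in healthy blood, 31.9 in arthritic blood, 37.4 in joint, 18.2 in lung and 14.9 in peritoneum. No neighbours in the order of these levels were apart beyond counting error. By size, peritoneum was 2.04-fold below healthy blood (1.06 to 4.11, 14 and 34 UMIs). With TMM scaling the ratio was 0.818, within 2-fold.

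Tnfsf9 had 1 UMI in healthy blood, 2 in arthritic blood, 9 in joint, 6 in lung and 16 in peritoneum, or 0.889, 0.743, 0.874, 4.54 and 17.0 CPM. The 6 UMIs in lung came from 2 cells and the 16 in peritoneum from 9 cells. Peritoneum to healthy blood gave a ratio of 19.1 with an interval of 2.97 to 801, on fewer than 20 UMIs, and lung was 3.74-fold below peritoneum (1.39 to 11.7).

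The receptors did not share a pattern here. Tnfrsf1a had 392 CPM in healthy blood, 386 in arthritic blood, 391 in joint, 202 in lung and 169 in peritoneum. The first 3 were not apart, nor were the last 2. Peritoneum was 2.32-fold below healthy blood (1.93 to 2.80) and lung was at a ratio of 0.516, while TMM scaling gave 0.842 in lung, 0.716 in peritoneum and 1.25 in joint, so lung and peritoneum stayed below healthy blood but within 2-fold, and joint changed side.

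Tnfrsf1b was higher at the tissue sites, with 154 CPM in healthy blood, 143 in arthritic blood, 459 in joint, 322 in lung and 905 in peritoneum. Both bloods were not apart, and all 3 sites were above them. The ratios to healthy blood were 2.98 (2.56 to 3.49) in joint, 2.09 (1.75 to 2.51) in lung and 5.88 (4.99 to 6.97) in peritoneum, and joint exceeded arthritic blood 3.21-fold (2.89 to 3.57). With TMM scaling they were 3.75, 3.42 and 9.79.

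Fas had 135 CPM in healthy blood, 140 in arthritic blood, 157 in joint, 649 in lung and 889 in peritoneum. Both bloods were not apart, the joint was 1.16-fold above healthy blood (0.983 to 1.38) and 1.12-fold above arthritic blood (1.002 to 1.26), and lung and peritoneum stood well above all 3. The ratios were 4.80 (4.04 to 5.74) in lung and 6.58 (5.53 to 7.87) in peritoneum, and 7.84 and 11.0 with TMM scaling. Lung and peritoneum differed by 1.37-fold for Fas, less than the 3.47-fold (2.78 to 4.37) for Tnf and 2.81-fold (2.50 to 3.17) for Tnfrsf1b by which peritoneum exceeded lung.

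Against the background of all genes, members past 2-fold higher were 2 of 6 in joint (10.7% of genes), 3 of 6 in lung (10.9%) and 3 of 6 in peritoneum (10.2%). Members past 2-fold lower were 1 of 6 in joint (25.9% of genes), 0 of 6 in lung (49.3%) and 2 of 6 in peritoneum (51.8%). Arthritic blood differed from healthy blood in 0 of 6 members, against 12.5% of genes in either direction, with ratios from 0.592 for Tnf to 1.06 for Tnfsf13b. Joint exceeded arthritic blood in 2 of 6 members (15.5% of genes) and lung was below peritoneum in 3 of 7 (8.6% of genes).

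The scaling mattered for the lower members. The median log2 ratio of all genes was -0.40 in arthritic blood, -0.47 in joint, -0.97 in lung and -1.06 in peritoneum, against -0.07, -0.14, -0.27 and -0.32 with TMM scaling. Members past 2-fold higher with TMM were the same number, 2 in joint (14.5% of genes), 3 in lung (18.7%) and 3 in peritoneum (17.6%), and members past 2-fold lower in peritoneum fell from 2 to 0 (29.1% of genes). Of all genes past 2-fold, 9.72% were higher in arthritic blood, 29.3% in joint, 18.1% in lung and 16.4% in peritoneum, and 40.0%, 49.4%, 40.4% and 37.7% with TMM. In arthritic blood TMM turned Tnfsf14 (0.801 to 1.01), Tnfrsf1a (0.985 to 1.24) and Tnfrsf1b (0.929 to 1.17) from below to above healthy blood.

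By cell, the 3 sites also lay above both bloods for Tnf and Tnfrsf1b. With each cell thinned to 1000 UMIs, leaving out 61 to 155 shallower cells per condition, Tnf had a UMI in 0 of 354 cells of healthy blood (exact 95% upper bound 1.04%), 0.445% of arthritic blood, 4.75% of joint, 6.64% of lung and 19.5% of peritoneal cells, and unthinned in 2.36%, 1.97%, 12.4%, 16.6% and 40.8%. Tnfrsf1b had one in 15.5%, 13.8%, 34.0%, 25.9% and 52.8% of thinned cells, and Fas in 14.4%, 12.9%, 13.1%, 42.0% and 54.5%. In the other cells' barcodes of the healthy libraries, thinned to the same depth but made with an earlier version of the kit's chemistry, Tnf had a UMI in 0.149 to 0.373%, Tnfrsf1b in 0.442 to 1.49% and Fas in 0.373 to 1.03%. The shares of Tnf in both bloods were not apart from that background, and the others lay above it. No such barcodes were available in the hashtagged library, where 4 cells fell outside the granulocyte classes.

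**Figure D5:**
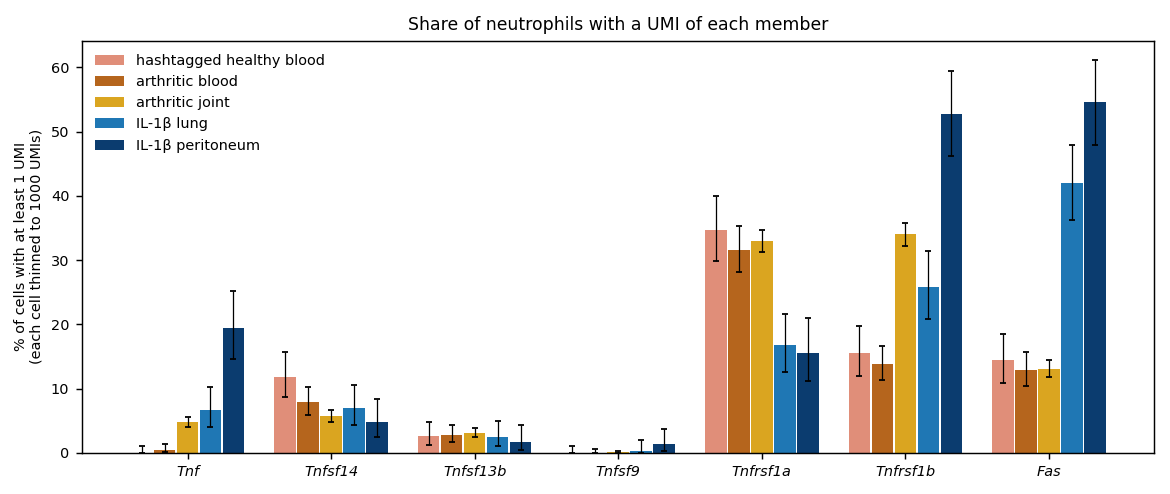
Share of neutrophils with at least 1 UMI of each member (%, vertical axis from 0) in the 5 hashtagged conditions after each cell was thinned to 1000 UMIs, with exact 95% binomial intervals as bars. Tnf runs from 0% in healthy blood to 19.5% in peritoneum, and Tnfrsf1a from 34.7% to 15.6%.

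A small number of cells held a large part of the Tnf transcripts. Cells with at least 3 UMIs of Tnf numbered 46 in joint, 8 in lung and 35 in peritoneum, and held 36.6%, 44.1% and 57.8% of that condition's Tnf UMIs, with up to 15, 22 and 10 UMIs in 1 cell. After thinning, Tnf and Tnfrsf1b were both seen in 22 peritoneal cells (9.52%, against 10.3% from the product of their shares) and in 49 joint cells (1.79% against 1.62%), and in lung in 0 of the 19 cells with Tnf (0% against 1.72%), where 27.7% of the cells without Tnf had Tnfrsf1b. Tnfrsf1b and Fas were both seen in 31.2% of peritoneal cells, against 28.8% from the product. These are descriptions of sparse counts.

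The level of Tnf in joint and peritoneum varied with the reference class that the deposited table gave each cell. In joint, Tnf was at 59.1 CPM in the 2260 cells placed nearest to arthritic synovial fluid neutrophils, 99.2 CPM in 245 cells nearest to thioglycollate-elicited peritoneal neutrophils, 14.1 CPM in 255 cells nearest to blood neutrophils and 0 UMIs in 96 cells nearest to urate-crystal-elicited neutrophils (exact 95% upper bound 15.2 CPM). Tnfrsf1b was at 485 CPM in both of the first classes and 251 and 259 CPM in the others. Fas was at 219 CPM in the thioglycollate-like cells and at 155, 134 and 140 CPM in the other classes, in the order above, with 95% intervals that overlapped among those classes and, for the urate-crystal class, with the thioglycollate-like cells too. In lung the values were not apart, with Tnf at 82.8 CPM in 275 synovial-fluid-like and 89.6 CPM in 74 thioglycollate-like cells, Tnfrsf1b at 331 and 370 CPM and Fas at 675 and 571 CPM, each pair with overlapping 95% intervals. In peritoneum Tnf was at 403 CPM in the 163 thioglycollate-like and 239 CPM in the 101 synovial-fluid-like cells, Tnfrsf1b at 1207 and 809 CPM and Fas at 1003 and 912 CPM, the last pair with overlapping intervals. The classes were assigned from the same cells' expression, so these values are a description.

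The TNF pathway was also read from lists of genes by role, in which the members are left out of the counts and medians that follow. Of 18 ligands of the family 4 passed the filter on low counts in healthy tissue, of which 1 was no member, Ltb, a subunit of membrane lymphotoxin, and it was called higher in blood than in marrow (1.32, edgeR FDR = 0.011). Of 28 receptors 8 besides the members were tested and 3 were called higher, against 12% of all genes: Ltbr, the lymphotoxin β receptor (edgeR FDR = 0.021; outside the rule for named genes and chosen after its value was seen), Relt (1.49, edgeR FDR = 0.0095) and the decoy receptor gene Tnfrsf23 (1.98), whose reads may be shared with its close copies Tnfrsf22 and Tnfrsf26. The median of these receptors was 0.22, against -0.02 for all genes, and none was called lower.

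Downstream of the receptors, 5 of 18 tested genes of the proximal complexes were called higher in blood, against 12% of all genes, including Map3k5 (1.73) and Rnf31 (1.46), a subunit of the linear ubiquitin ligase, with a list median of 0.25. Of 8 tested death genes besides Fas 0 were called higher and 1 lower, the Fas-associated factor Faf1 (-1.45, edgeR FDR = 0.022), with a median of -0.84, against 10.7% of all genes called lower. Of 18 tested genes listed as transcriptional targets 8 were called higher, with a median of 1.66. They were led by Il1b (4.48), Ccl4 (2.84), Bcl2a1b (2.47, a member of a near-identical gene group) and Tnfaip2 (2.45). The list does not tell TNF from other signals that may act on these genes. In spleen against marrow 0 of 8 receptors and 3 of 18 targets were called higher, against 2.46% of all genes, and 0 genes of these lists lower, with Il1b at 3.59.

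Between granule-high and granule-low cells these lists gave 2 receptors higher and 2 lower of 5 tested, 0 and 5 of 15 proximal genes, 3 and 1 of 6 death genes and 0 and 5 of 9 targets, against 22.9% of all genes higher and 23.4% lower. Il1b had the largest difference among them (-4.30). The list medians were 0.22 for receptors, -0.21 for proximal genes, 0.56 for death genes and -0.59 for targets, against 0.03 for all genes.

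In the inflamed sites the targets had the highest list medians. Of those with enough UMIs 11 of 20 were past 2-fold higher in joint, 19 of 20 in lung and 19 of 19 in peritoneum, and 0 were past 2-fold lower at any of them, against 10.7%, 10.9% and 10.2% of all genes past 2-fold higher. The list's median log2 ratios were 1.38, 3.37 and 3.94, against -0.47, -0.97 and -1.06 for all genes. The lung and peritoneum mice were given IL-1β, and whether TNF had a part in these levels was not tested. Examples were the chemokine gene Cxcl2 in joint (35.3-fold) and lung (67.3-fold) and the NF-κB inhibitor Tnfaip3 in peritoneum (42.8-fold). In arthritic blood 0 of 17 were higher and 1, Icam1, was lower (2.01-fold, and 1.59-fold with TMM scaling).

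Proximal genes had no such pattern, with 1 higher and 4 lower of 20 in joint, 2 and 10 of 18 in lung and 2 and 5 of 17 in peritoneum. Of all genes 25.9% were past 2-fold lower in joint, 49.3% in lung and 51.8% in peritoneum, so the lower counts of this list were near that share in joint and lung and under it in peritoneum. With TMM scaling 2, 4 and 2 proximal genes were lower, against 14.8%, 27.6% and 29.1% of all genes. Those higher were Traf1, an adaptor of TNFR2 (5.31-fold in joint, 53.5-fold in lung, 58.0-fold in peritoneum), and Birc3 (3.89-fold in lung, 7.12-fold in peritoneum). Both are on the list of targets too and are counted in each list. Map3k5 was lower at all 3 sites (2.14-fold, 4.85-fold and 3.62-fold), and with TMM scaling past 2-fold in lung (2.97-fold) and peritoneum (2.18-fold) but not in joint (1.70-fold). Among death genes 2 of 8 were higher and 3 lower in joint, 2 and 3 of 5 in lung and 2 and 2 of 5 in peritoneum, with Casp8 higher in each (2.78-fold, 7.12-fold and 5.03-fold) and its inhibitor Cflar higher in lung (2.88-fold) and peritoneum (5.59-fold). Receptors split too, 5 higher and 3 lower of 11 in joint, 3 and 3 of 6 in lung and 1 and 3 of 6 in peritoneum, against the shares of all genes given above. Those higher included Tnfrsf26 (5.73-fold in joint, 10.7-fold in lung) and Tnfrsf23 (4.91-fold and 5.72-fold), whose reads may be shared. Those lower included Relt in joint (3.12-fold), Tnfrsf21 in lung (10.6-fold) and in peritoneum (ratio 0.0663, 0.0133 to 0.204, on 3 UMIs), and Ltbr in peritoneum (6.40-fold), all still past 2-fold with TMM scaling. Ligands other than the members added none past 2-fold against healthy blood in these 3 sites.

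For each member the genes most like it were taken by Pearson's r of log2(CPM + 1) over the 11 sums of libraries and conditions (8 for Tnfsf9), among 5202 genes (5203 for Tnfsf9), as a description with no test. The 5 conditions share a library and a later version of the kit's chemistry than the healthy libraries, so levels also differ with the kit across these sums. For Tnf they were Mapkapk2 (0.955), Traf1 (0.954) and Ehd1 (0.949). For Tnfrsf1b they were Cd44 (0.994), Slc11a1 (0.994) and Chst11 (0.992), and for Fas Bcl2a1a (0.985), Birc3 (0.984) and Ptpn1 (0.982). Tnfrsf1a was nearest to Tgfbi (0.979), Wbp1l (0.975) and 4732465J04Rik (0.968), and Tnfsf14 to Csf1r (0.980), H2-Q10 (0.978) and Gcnt2 (0.976). Tnfsf13b was nearest to Abhd5 (0.928), Wipi1 (0.928) and St3gal5 (0.922), and Tnfsf9 to Il1f9 (0.982), Batf (0.969) and Bcl3 (0.961).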

How the data were processed

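Neutrophil single-cell 3' RNA-seq was analysed from 7 samples: 6 healthy libraries (blood, bone marrow and spleen in 2 runs) and 1 hashtagged inflammation library of 5 conditions, which by the methods used a later version of the 10x chemistry than the healthy libraries. No test was made across the kits. The deposited tables hold raw UMI counts per gene and cell, made by the authors with Cell Ranger (1.2.0, 2.1.0 and 3.0.2) on mm10. A deposited table of cells gave condition and reference class. Every column was assigned to a sample (0 unmapped). Healthy UMIs were summed per library, or per library and granule stratum, filtered with filterByExpr, scaled by TMM and tested with edgeR 4.0.16 (R 4.3.3) by the quasi-likelihood test with Benjamini-Hochberg adjustment over all genes. DESeq2 1.42.0 was an alternative. A gene without a row in a run 1 table was set to 0 there.

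Run entered as a block because, by the methods, blood, marrow and spleen were pooled from 1 set of mice per run. Deviations of same-run libraries correlated at r = 0.60 for marrow and blood, 0.63 for marrow and spleen and 0.54 for blood and spleen, over 7730 genes. On simulated counts the blood and marrow test recovered 2 of 67 genes changed 1.5-fold, 7 of 67 changed 2-fold and 59 of 66 changed 4-fold, with 6 false calls among 7574 genes, and the stratum test recovered 14 of 67, 55 of 67 and 64 of 66, with 6 false calls among 5371. Inflamed conditions were 1 pool each: CPM had exact 95% Poisson intervals and ratios exact conditional binomial ones, which cover counting error only, and shares had exact Clopper-Pearson ones. No doublet caller was run. Thinning of the barcodes of other cell types was added after the data were seen. The members and pathway lists were chosen with earlier results of these data known. Named genes were the members, the 3 genes most correlated with each, and per list up to 4 called genes with the largest change. Alternatives were other scalings, cell and count filters, thinning, a mean over cells, leaving out each library, and no replicate block.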

Additional observations from a re-analysis of the deposited data

How the results depend on the processing

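Of the summary counts recomputed under alternatives other than leaving out a library, 169 stayed within 1.5 times the reported count and 29 did not. The hashtagged conditions held 0 granule-high cells, so keeping granule-low cells was no test there. Without the replicate block, which removes the pairing by run, 142 genes were called in blood against marrow with 1 member (Tnfsf14, FDR = 0.044; Tnfrsf1a 0.13, Tnfrsf1b 0.11, Fas 0.22), 0 genes and 0 members in spleen against marrow (Tnf turned to 0.062), and 0 genes in spleen against blood, all by edgeR, while the stratum comparison kept 5 members. Blood against marrow fell from 1751 genes to 789 without cells bearing a monocyte or macrophage marker (members from 4 to 2) and to 1005 in granule-low cells. Spleen against marrow moved from 240 genes to 156 with library totals, 121 under mitochondrial and gene number limits, 653 without cells bearing a monocyte or macrophage marker, 810 in granule-low cells and, chosen after seeing the data, 361 with genes that have a row in all tables. Spleen against blood moved from 5 genes to 27 with DESeq2, 28 with no low count filter, 22 with S100a8 and S100a9 at 10% or more, 9 without cells bearing a monocyte or macrophage marker and 15 with genes in all tables. The difference of strata between blood and marrow moved from 177 genes to 112 with DESeq2 and, added later, 284 with library totals. Arthritic blood moved from 813 genes past 2-fold to 512 with TMM, 508 without cells bearing a monocyte or macrophage marker and 475 with thinned cells, and from 0 members to 1 (Tnf) with a mean over cells and under the mitochondrial limits. With thinning, where fewer genes reached 20 UMIs, lung moved from 3495 genes to 1844, peritoneum from 3425 to 1770 and lung against peritoneum from 848 to 456, and TMM took peritoneum from 5 members to 3.

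Fas reversed in blood against marrow to -0.36 without cells bearing a monocyte or macrophage marker and -0.34 in granule-low cells, and in spleen against marrow to -0.37 and -0.30. Spleen against blood reversed without cells bearing a monocyte or macrophage marker for Tnfsf14 (0.18), Tnfsf13b (-0.11) and Tnfrsf1b (0.037), and in granule-low cells for Tnfsf14 (0.18), Tnfsf13b (-0.19) and Fas (0.046). The difference of strata reversed for Tnfsf14 to -0.10 and Tnfrsf1b to 0.26 with a granule limit of 1%, for Tnfsf14 to -0.14 under the mitochondrial limits, and for Tnfsf14 to -0.42 and Tnfsf13b to -0.050 with library totals. Tnfsf13b was called lower in blood under the mitochondrial limits (FDR = 0.038) and with genes in all tables (FDR = 0.029), and Fas lost its call with DESeq2 (FDR = 0.072) and under those limits (FDR = 0.11). The causes were not tested.

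Leaving out each library in turn gave 232 to 2743 genes and 0 to 5 members in blood against marrow, 63 to 1079 and 0 to 3 in spleen against marrow, 0 to 685 and 0 to 1 in spleen against blood, 1940 to 2498 and 5 to 5 between strata, and 27 to 195 and 0 in the difference of strata. Signs changed for Tnf in blood against marrow (-1.30 to 1.69), spleen against marrow (-1.60 to 1.42) and spleen against blood (-1.35 to 1.28), Tnfsf13b in spleen against blood (-0.0069 to 0.89), and Tnfsf14 (-0.43 to 0.61) and Tnfsf13b (-0.99 to 0.96) in the difference of strata. With 2 pools per tissue and 7 of 67 simulated 2-fold changes recovered, a missed call between tissues says little. The simulation changed 200 genes and held no run effect, so its recovery need not carry over to the data. Tnfsf9 and healthy Tnf were limited by counts, and the inflamed conditions by 1 pool each.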

Other observations

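Genes linked to the release of TNF or its receptors from the membrane, or to the control of that release, were read as a list. Of these 8 shedding genes, not all of which encode proteases that cut TNF, 6 were tested in healthy tissue. In blood against marrow 3 were called higher and 0 lower by edgeR: Furin (1.81, FDR = 0.0068), the TNF-converting enzyme Adam17 (0.95, FDR = 0.033) and the intramembrane protease Sppl2a (0.94, FDR = 0.032), with a list median of 0.94 against -0.02 for all genes, of which 12% were called higher. In granule-high against granule-low cells 0 of 5 were higher and 3 lower (23.4% of all genes were lower), Furin at -1.39. In the inflammation library Adam17 was 2.30-fold higher in joint than in healthy blood (1.79 to 3.02) and Furin 2.56-fold higher in peritoneum (2.25 to 2.92), Adam10 was 2.38-fold lower in lung (1.46-fold with TMM scaling), and Sppl2b was 4.79-fold lower in joint on 21 and 11 UMIs.

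All 8 genes on a list of regulators of AU-rich and stem-loop mRNA decay, which act on Tnf transcripts among others, were tested in healthy tissue. In blood against marrow 5 were called higher and 0 lower by edgeR, among them Zfp36l1 (2.63, FDR = 0.0044), Zfp36, which encodes tristetraprolin (1.77, FDR = 0.0072), Zc3h12a, which encodes regnase-1 (1.75, FDR = 0.0092), and Zfp36l2 (1.38, FDR = 0.0073), with a list median of 1.26, where 12% of all genes were called higher. In granule-high cells 1 of 7 was higher and 5 were lower (22.9% and 23.4% of all genes), Zfp36 at -1.61. At the inflamed sites the members of the Zfp36 family moved apart. Zfp36l2 was 6.34-fold below healthy blood in lung and 20.9-fold below in peritoneum (3.88-fold and 12.5-fold with TMM scaling), Zfp36l1 was 3.55-fold above in joint, 4.84-fold in lung and 3.48-fold in peritoneum, and Zfp36 was 2.31-fold above in peritoneum (2.11 to 2.52). Zc3h12a was 4.44-fold above in lung and 8.37-fold above in peritoneum, where Tnf was highest. These conditions are 1 pooled sample each and the ratios share the healthy blood sample.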
